A study of Mus musculus with 112 samples.

Results

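Rnf213 and Psap are 2 genes whose RNA in ESCs the study of these libraries displayed as examples of LSD1-dependent genes, out of 25209 genes counted in each library. They were taken as the rows carrying those symbols in all 112 count tables and are described here as CPM, the counts of the gene per 1000000 counts of the library. The display of LSD1 KO, catalytically inactive and wild-type ESCs covered both genes, and the displays of re-expressed LSD1 and of A485-treated ESCs covered Rnf213. These contrasts therefore chose the genes, so their values are descriptions without a test, whereas every other contrast was tested in a fit over all genes. Tests against WT ESCs, and differences between effects that include them, share WT libraries with the choosing contrasts. They are therefore not independent of the choice.

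LSD1, encoded by Kdm1a, is a histone demethylase that acts with the CoREST proteins RCOR1 and RCOR2, and the study compared mouse embryonic stem cells (ESCs) that lacked these proteins or carried LSD1 without catalytic activity. ESCs were wild type (WT), LSD1 KO (promoter and first exon deleted), LSD1 CI (catalytic residues mutated in the endogenous gene), RCOR1 KO, RCOR2 KO or RCOR1/2 DKO, and a further set lacked MLL4, a histone methyltransferase encoded by Kmt2d, alone, together with LSD1 (MLL4 LSD1 DKO) or together with LSD1 catalysis (MLL4 KO LSD1 CI). LSD1Res cells were LSD1 KO cells and DKOLSD1 cells were RCOR1/2 DKO cells, both with an LSD1 transgene induced by doxycycline (DOX), and LSD1 KO cells with and without DOX were their control. Cells were also differentiated as embryoid bodies (EBs, hanging drops) for 6 days, in serum (FBS) for 4 days or towards epiblast-like cells (EpiLCs) for 2 days, and LSD1 KO cells of each state received A485, an inhibitor of the P300 and CBP acetyltransferases, or its solvent DMSO. By the legends of the study, the dose and exposure of A485 differed between ESCs and EBs, and those in serum and EpiLC cultures were not given in the sources used here. WT and LSD1 CI cells in FBS and EpiLC cultures carried the DMSO label too, and 1 set of EBs was labelled with DMSO while the other was not. The lines are clones of 1 ESC background, and the labels do not say which library came from which clone, so p-values measure only the spread between these libraries.

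Rnf213 encodes a very large cytosolic protein with an AAA+ ATPase core and a ubiquitin ligase activity, known from vascular disease, from lipid droplets and as an interferon-inducible defence against intracellular microbes. Psap encodes prosaposin, a precursor that is carried to the lysosome by the receptor sortilin or secreted, and is cleaved there into the saposins, small activators that sphingolipid hydrolases need. Both are transcribed in many tissues and neither is a marker of pluripotency.

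In the mm9 annotation of the deposited counts, Rnf213 spans 97.3 kb on the plus strand at chr11:119251413-119348732, with 68 merged exons of 16751 bp in all. Psap spans 25.0 kb on the plus strand at chr10:59740376-59765348, with 16 merged exons of 2733 bp. Psap was the more abundant RNA: per kb of exon, WT ESCs held 61.0 ± 9.58 CPM of Psap and 13.5 ± 2.33 CPM of Rnf213 (SD, n = 11).

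The 250 bases before each RefSeq start (GRCm38.p6, plus strand, 5′ to 3′) are shown because both genes rose in RCOR2-deficient ESCs, with GC boxes (GGGCGG) and the CACCC box (CCACCC) in capitals. The first is at chr11:119389849-119390098 and the second, the upstream of 2 RefSeq starts of Psap, at chr10:60277378-60277627 of that build.
Rnf213: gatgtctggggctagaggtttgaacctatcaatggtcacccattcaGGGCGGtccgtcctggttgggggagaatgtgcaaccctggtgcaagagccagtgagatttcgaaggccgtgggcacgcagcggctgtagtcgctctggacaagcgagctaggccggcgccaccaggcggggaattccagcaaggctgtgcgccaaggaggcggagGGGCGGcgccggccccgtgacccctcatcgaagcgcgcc
Psap: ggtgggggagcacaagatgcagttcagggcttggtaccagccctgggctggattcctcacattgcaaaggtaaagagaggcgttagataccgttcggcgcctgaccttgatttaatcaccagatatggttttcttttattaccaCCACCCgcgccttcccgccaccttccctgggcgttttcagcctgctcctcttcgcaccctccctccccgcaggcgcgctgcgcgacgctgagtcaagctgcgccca

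Both windows were rich in CpG: 20 CpG and 65.2% GC for Rnf213, 16 CpG and 58.8% GC for Psap, against medians of 6 and 52.4% over 32851 promoters of the same length. As the strings GGGCGG and CCACCC, the Rnf213 window held 2 GC boxes and no CACCC box, and the Psap window no GC box and 1 CACCC box. The shorter string CACCC, without the first C, was not searched and also occurs in the letters of the Rnf213 window. On either strand, 32.7% of all promoters held a GC box and 28.1% a CACCC box, so these matches are common letters. The E box CACGTG (6.02% of all promoters), the interferon response element of GAAA, 2 bases of any kind and GAAA (2.98%), TATAAA (12.4%) and CCAAT (33.8%) were searched on both strands and were not among these letters in either window.

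Library depth ran from 17.2 to 58.2 M counts, and every library had at least 136 counts of Rnf213 and 2346 of Psap. Of the 112 libraries, 9 (WT ESC replicates 1 to 3 and all 6 LSD1 KO ESC libraries) had 0 counts on unplaced contigs, where the others had at least 4241, so the set of contigs behind their counts differed. Apart from LSD1Res cells, Kdm1a was at most 10.3 CPM in every group labelled as lacking LSD1 and at least 107 CPM in those that keep the gene. The libraries labelled RCOR2KO EB went against their label: they held 53.8 and 44.6 CPM of Rcor2, against 0.67 to 4.46 CPM in RCOR2 KO ESCs and 121 to 153 CPM in WT EBs. Kmt2d was 222 and 228 CPM in MLL4 KO ESCs and 307 to 746 CPM in WT ESCs, but reached 398 CPM in MLL4 KO LSD1 CI, so its RNA level does not check that label.

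Across the 34 groups Rnf213 varied far more than Psap. Mean Rnf213 ran from 9.56 ± 1.58 CPM (SD, n = 2) in A485-treated LSD1 KO serum cells to 534 ± 47.5 CPM (n = 4) in RCOR1/2 DKO ESCs. Mean Psap ran from 102 ± 2.92 CPM (n = 2) in DMSO-treated WT EBs to 654 ± 26.0 CPM (n = 4) in DKOLSD1 cells with DOX. In the order of the group means, 25 of 33 neighbouring pairs for Rnf213 and 27 of 33 for Psap lay within their pooled SD. For Rnf213, the 8 highest means (427 to 534 CPM) were all ESC groups without LSD1, RCOR2 or both CoREST proteins, and neighbours among them did not differ beyond that spread. The steps that exceeded it included the one from LSD1 CI ESCs down to A485-treated LSD1 KO ESCs, a difference of 104 CPM.

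**Figure D1:**
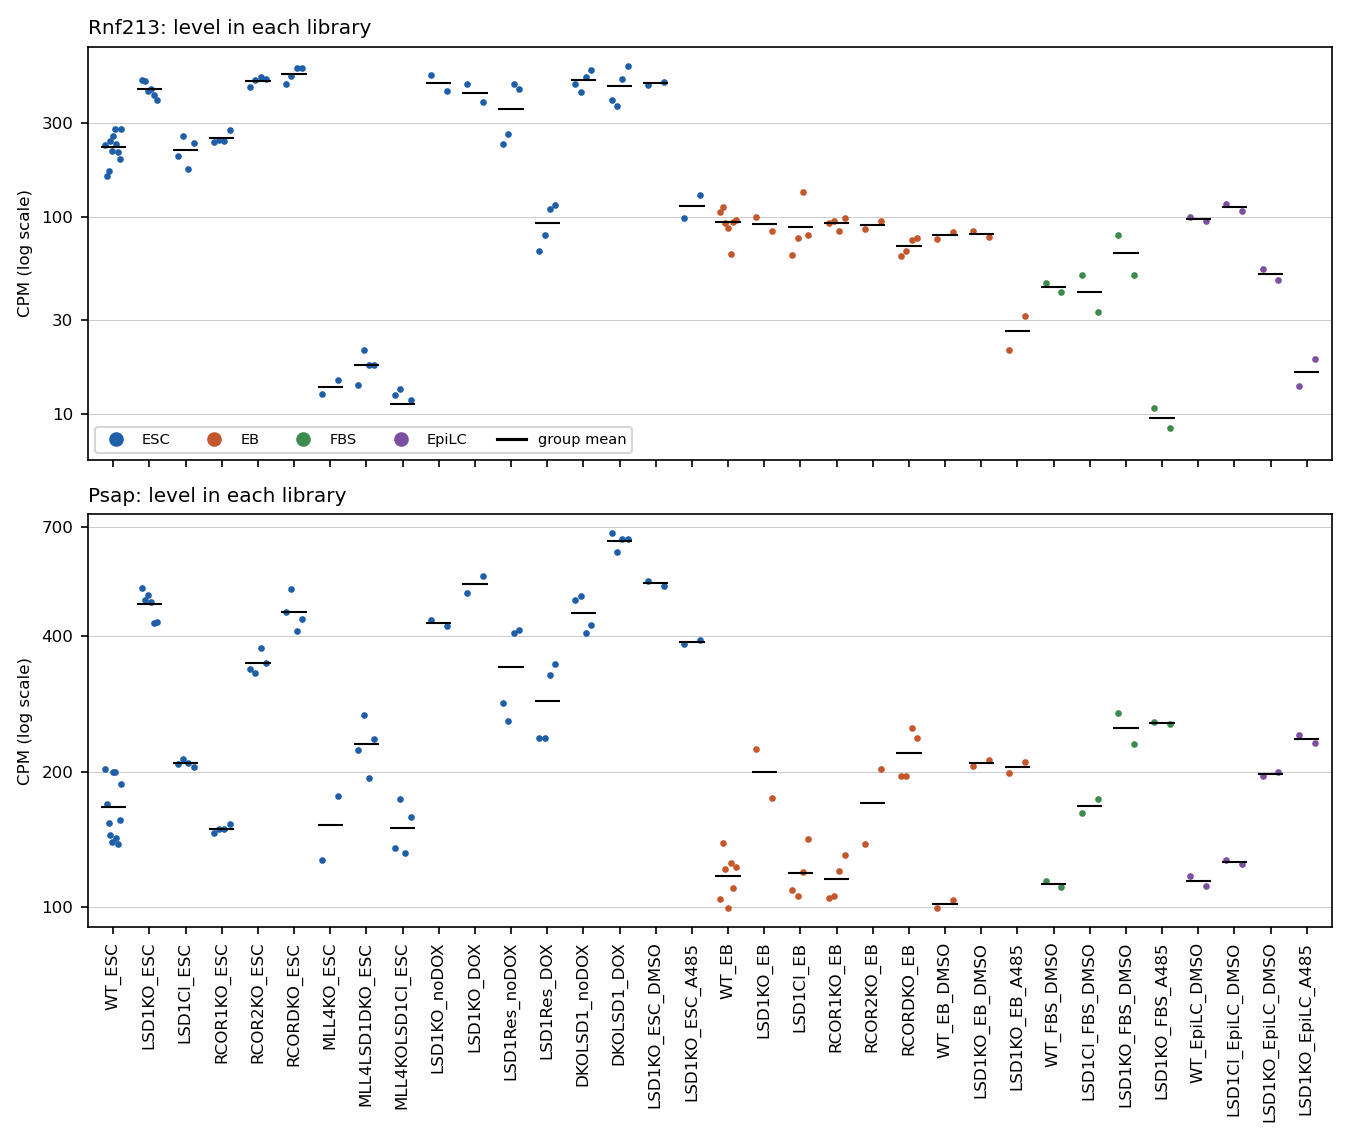
CPM of Rnf213 (top) and Psap (bottom) on a log axis in each of the 112 libraries, 1 point per library, coloured by cell state, with a bar at each group's mean. Rnf213 is lowest in MLL4-mutant ESCs and in A485-treated EBs, serum cells and EpiLCs, with means of 9.56 to 26.3 CPM, while Psap is at 99.3 CPM or more in every library.

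WT cells lost Rnf213 RNA in all 3 routes of differentiation. The 11 WT ESC libraries held 162 to 280.5 CPM (median 231), and 7 untreated WT EB libraries 65.0 to 113 CPM (median 94.0). WT serum cells held 46.1 and 41.6 CPM and WT EpiLCs 99.4 and 95.3 CPM. None of these ranges reached that of the ESCs, although the serum and EpiLC cultures, unlike the ESCs, had received DMSO. The media differed too. By the paper's methods, ESC medium was serum-free with MEK and GSK inhibitors and LIF, which are not listed for the differentiation media. The part of the media was not tested. Rnf213 fell 2.72-fold in EBs (log2 −1.44 ± 0.12 SE, edgeR quasi-likelihood test, adjusted p = 1.7e-10), 5.34-fold in serum (−2.42 ± 0.21, adjusted p = 4.79e-09) and 2.24-fold in EpiLCs (−1.16 ± 0.19, adjusted p = 5.24e-05). Among all genes tested, 58.8%, 28.1% and 24.2% passed an adjusted p below 0.01 in those comparisons, the threshold used throughout.

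Psap fell less. Its 11 WT ESC libraries held 138 to 203 CPM (median 156), the 7 WT EB libraries 99.3 to 139 CPM (median 122), serum cells 114 and 111 CPM and EpiLCs 117 and 111 CPM. The EB and ESC ranges overlapped narrowly, whereas serum cells and EpiLCs lay below all ESC libraries. The decrease passed in EBs (−0.69 ± 0.11, adjusted p = 6.33e-06) and in serum (−0.63 ± 0.18, adjusted p = 0.00662) but not in EpiLCs (−0.50 ± 0.18, adjusted p = 0.0283). The serum call was lost without either WT serum library (adjusted p up to 0.0966). The summed level of 6 naive ESC markers was 1834 to 2441 CPM in WT ESCs, 126 to 393 CPM in WT EBs, 621 and 624 CPM in serum and 473 and 522 CPM in EpiLCs; its part in these decreases was not tested. In bulk samples such as these, fewer cells of a type and less RNA per cell cannot be told apart.

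In ESCs, the contrasts that chose the genes read as follows. The 6 LSD1 KO libraries held 393 to 494 CPM of Rnf213 (median 441) and 428 to 512 CPM of Psap (median 480), all above the 11 WT libraries. LSD1 CI libraries held 203, 257, 174 and 236 CPM of Rnf213, inside the WT range, and 208, 213, 209 and 204 CPM of Psap, just above it. Of all genes tested, 51.2% passed between LSD1 KO and WT, 6.93% between LSD1 CI and WT and 39.4% between LSD1 KO and LSD1 CI, and nothing is read from these shares for genes picked on the same contrasts. The distance from LSD1 CI to LSD1 KO was log2 1.09 for Rnf213 and 1.23 for Psap, or 1.34 and 1.03 with a term for the alignment difference.

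CoREST mutants separated RCOR1 from RCOR2 for both genes. RCOR1 KO ESCs held 239, 246, 244 and 276 CPM of Rnf213 and 146, 149, 149 and 153 CPM of Psap, within the WT ranges. RCOR2 KO ESCs held 456, 498, 516 and 499 CPM of Rnf213 and 338, 332, 377 and 349 CPM of Psap, and RCOR1/2 DKO ESCs 472, 522, 570 and 571 CPM and 453, 509, 410 and 436 CPM. All 8 libraries without RCOR2 lay above all WT libraries for both genes. Neither gene passed in RCOR1 KO (Rnf213 0.11 ± 0.12, adjusted p = 0.577, Psap −0.21 ± 0.11, adjusted p = 0.19), where 0.318% of all genes did.

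Both genes rose in RCOR2 KO, Rnf213 by 1.19 ± 0.11 (adjusted p = 3.94e-10) and Psap by 1.12 ± 0.10 (adjusted p = 9.05e-11), a comparison in which 12.0% of genes passed. Only 1228 of 17603 genes had a larger log2 fold change than Rnf213 and 1363 a larger one than Psap. In the DKO they rose by 1.09 ± 0.11 (adjusted p = 1.68e-10) and 1.29 ± 0.10 (adjusted p = 7.67e-14), with 37.0% of genes passing. Going from RCOR2 KO to the DKO changed neither detectably (Rnf213 −0.10 ± 0.15, adjusted p = 0.619, Psap 0.16 ± 0.13, adjusted p = 0.311), while 30.4% of genes passed that step.

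In EBs the 2 genes parted. LSD1 KO EBs held 99.8 and 85.2 CPM of Rnf213, inside the WT EB range, and 224 and 175 CPM of Psap, above it. LSD1 CI EBs held 63.7, 78.5, 134 and 80.9 CPM of Rnf213 and 109, 106, 119 and 141 CPM of Psap, which overlapped WT for both. Rnf213 differed from WT by −0.00 ± 0.20 in LSD1 KO (adjusted p = 0.992) and by −0.01 ± 0.15 in LSD1 CI (adjusted p = 0.986). Psap rose 1.72-fold in LSD1 KO (0.78 ± 0.15, adjusted p = 0.00031), did not pass in LSD1 CI (0.08 ± 0.12, adjusted p = 0.692), and was higher in LSD1 KO than in LSD1 CI (0.70 ± 0.16, adjusted p = 0.00282), where Rnf213 differed by 0.00 ± 0.21 (adjusted p = 0.993). The shares of all genes that passed were 24.1%, 5.07% and 18.4%. Without LSD1 KO EB replicate 1, both Psap calls were lost (0.60, adjusted p = 0.0263, against WT, and 0.52, adjusted p = 0.0744, against LSD1 CI), and the second was also lost without LSD1 CI EB replicate 2 (0.63, adjusted p = 0.012). Summed marker levels differed in LSD1 KO EBs too: cardiac mesoderm genes were at 22.7 and 23.7 CPM against 79.9 to 631 CPM in WT EBs, neural genes at 230 and 246 CPM against 32.9 to 78.9 CPM, and naive genes at 519 and 549 CPM against 126 to 393 CPM. Their part in the rise of Psap was not tested.

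RCOR1 KO EBs resembled WT EBs in level, with 93.4, 95.3, 84.8 and 98.3 CPM of Rnf213 and 105, 106, 120 and 130 CPM of Psap. Neither passed (Rnf213 −0.03 ± 0.15, adjusted p = 0.979, Psap −0.04 ± 0.12, adjusted p = 0.954), whereas 0.00558% of all genes did. The libraries labelled RCOR2KO EB, which still held Rcor2 RNA, had 87.1 and 95.3 CPM of Rnf213 and 138 and 203 CPM of Psap. Here Psap differed by 0.49 ± 0.15 (adjusted p = 0.0282) and Rnf213 by −0.09 ± 0.20 (adjusted p = 0.792), and 7.18% of genes passed.

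RCOR1/2 DKO EBs held 63.2, 66.9, 76.6 and 78.4 CPM of Rnf213, at or just under the low end of WT EBs, and 196, 195, 251 and 237 CPM of Psap, all above WT EBs. Psap rose 1.85-fold (0.89 ± 0.12, adjusted p = 1.65e-06), while Rnf213 had a negative difference that did not pass (−0.41 ± 0.16, adjusted p = 0.0287), in a comparison where 47.8% of genes passed. Against the libraries labelled RCOR2KO EB, where 20.4% of genes passed, the DKO differed by −0.32 ± 0.21 for Rnf213 (adjusted p = 0.256) and 0.40 ± 0.17 for Psap (adjusted p = 0.0757). The response of Rnf213 to loss of both CoREST proteins was itself different in the 2 states: the EB effect minus the ESC effect was −1.51 ± 0.19 (adjusted p = 2.75e-07), and 29.5% of genes passed that test. For Psap the same difference was −0.40 ± 0.18 (adjusted p = 0.0852). Marker levels differed between these EBs as well: 5 cardiac mesoderm genes summed to 9.04 to 11.4 CPM in DKO EBs and 79.9 to 631 CPM in WT EBs, and naive markers to 1005 to 1085 CPM and 126 to 393 CPM. Their part in the values above was not tested.

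**Figure D2:**
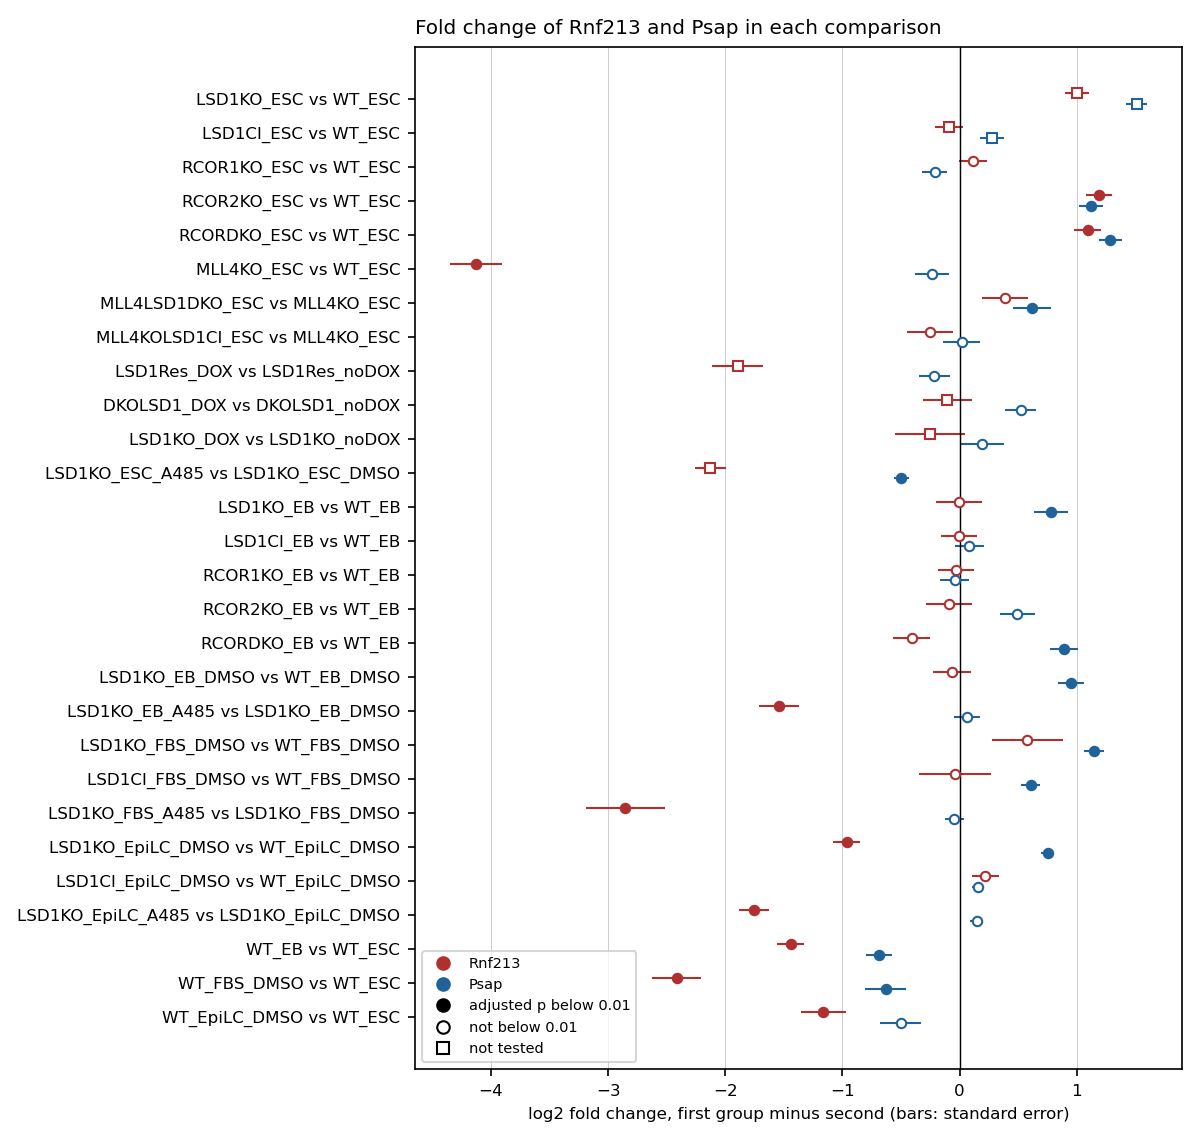
Log2 fold change of Rnf213 (red) and Psap (blue) with standard errors in 28 comparisons, filled where the adjusted p was below 0.01, open where it was not and square where the contrast chose the gene and no test was made. Psap lies right of 0 in LSD1 KO cells of every state, whereas Rnf213 lies near 0 in EBs and at −0.96 in EpiLCs.

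The DMSO-treated cultures gave LSD1 loss in 3 differentiated states. In EBs, WT libraries held 77.6 and 83.8 CPM of Rnf213 and LSD1 KO libraries 84.8 and 78.8 CPM, so the groups overlapped. In serum, WT held 46.1 and 41.6 CPM, LSD1 CI 50.5 and 32.9 CPM and LSD1 KO 80.5 and 50.8 CPM, with a wide gap between the LSD1 KO libraries. In EpiLCs, WT held 99.4 and 95.3 CPM, LSD1 CI 117 and 107 CPM and LSD1 KO 54.6 and 48.1 CPM, the reverse of the ESC order.

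Rnf213 accordingly fell in LSD1 KO EpiLCs (1.95-fold, −0.96 ± 0.12, adjusted p = 6.61e-05), and was lower there than in LSD1 CI EpiLCs (−1.18 ± 0.12, adjusted p = 3.38e-05). Of 15986 genes tested in LSD1 KO against WT EpiLCs, 1039 had a lower fold change. LSD1 CI EpiLCs did not pass against WT (0.22 ± 0.12, adjusted p = 0.244). In DMSO-treated EBs the LSD1 KO difference was −0.07 ± 0.16 (adjusted p = 0.773). In serum it was 0.58 ± 0.31 against WT (adjusted p = 0.207) and 0.62 ± 0.31 against LSD1 CI (adjusted p = 0.257), and LSD1 CI differed from WT by −0.04 ± 0.31 (adjusted p = 0.953). The LSD1 KO effect in serum minus that in EpiLCs was 1.54 ± 0.25 (adjusted p = 0.00665), a difference that 1.76% of all genes passed. It was lost without any 1 of 6 libraries (both WT serum, both WT EpiLC and both LSD1 KO EpiLC libraries, adjusted p up to 0.0395).

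Psap moved one way in all of them. DMSO-treated WT EBs held 99.6 and 104 CPM and LSD1 KO EBs 206 and 212 CPM. Serum WT held 114 and 111 CPM, LSD1 CI 162 and 174 CPM and LSD1 KO 270 and 230 CPM. EpiLC WT held 117 and 111 CPM, LSD1 CI 127 and 124 CPM and LSD1 KO 196 and 200 CPM. In each state the LSD1 KO libraries were highest and did not overlap the others, and LSD1 CI libraries lay between in serum and EpiLCs. Psap rose 1.94-fold in EBs (0.95 ± 0.11, adjusted p = 3.36e-05), 2.21-fold in serum (1.15 ± 0.08, adjusted p = 3.47e-06) and 1.68-fold in EpiLCs (0.75 ± 0.05, adjusted p = 8.37e-08). In LSD1 CI it rose in serum (0.61 ± 0.08, adjusted p = 6e-04) and did not pass in EpiLCs (0.16 ± 0.05, adjusted p = 0.0672). LSD1 KO exceeded LSD1 CI in serum (0.54 ± 0.08, adjusted p = 0.00149) and EpiLCs (0.60 ± 0.05, adjusted p = 2.23e-06), but the serum call was lost without LSD1 KO replicate 1 (0.41, adjusted p = 0.0244). None of the differences in LSD1 KO effect between these 3 states passed for Psap (adjusted p = 0.0597 to 0.365). Of all genes, 23.8% passed for EBs minus serum, 26% for EBs minus EpiLCs and 1.76% for serum minus EpiLCs.

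As a background to these counts, 28.1% of all genes passed between LSD1 KO and WT in DMSO-treated EBs, 20.1% in serum and 24.9% in EpiLCs. Between LSD1 CI and WT the shares were 7.43% in serum and 6.52% in EpiLCs, and between LSD1 KO and LSD1 CI 5.35% and 13.0%. Marker levels differed too. In DMSO-treated EBs, cardiac mesoderm genes summed to 410 and 577 CPM in WT and 14.8 and 16.2 CPM in LSD1 KO, endoderm genes to 310 and 313 CPM and 29.6 and 44.6 CPM, neural genes to 35.4 and 47.9 CPM and 222 and 233 CPM, and naive genes to 194 and 222 CPM and 519 and 550 CPM. In serum, neural genes went the other way, at 347 and 508 CPM in WT and 157 and 190 CPM in LSD1 KO. Cardiac genes were at 5.64 and 6.04 CPM in WT serum cells and 32.8 and 34.8 CPM in LSD1 KO, and naive genes at 621 and 624 CPM and 861 and 938 CPM. In EpiLCs, 4 EpiLC markers summed to 2504 and 2514 CPM in WT EpiLCs and 1474 and 1486 CPM in LSD1 KO EpiLCs, and 6 naive markers to 473 and 522 CPM and 725 and 739 CPM. Their part in the values above was not tested.

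Rnf213 was lower with A485 in LSD1 KO cells of each state. LSD1 KO ESCs held 468 and 485.5 CPM with DMSO and 98.5 and 129 CPM with A485, the description that helped to choose the gene (log2 −2.13, 47.7% of all genes passing). LSD1 KO EBs held 84.8 and 78.8 CPM with DMSO and 21.2 and 31.4 CPM with A485. Serum cells held 80.5 and 50.8 CPM with DMSO and 10.7 and 8.4 CPM with A485. EpiLCs held 54.6 and 48.1 CPM with DMSO and 13.8 and 19.0 CPM with A485. No treated library overlapped the DMSO libraries of its state.

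The fall in the 3 states that did not choose the gene passed each time: 2.91-fold in EBs (−1.54 ± 0.17, adjusted p = 2.99e-05, 20.9% of genes passing), 7.24-fold in serum (−2.86 ± 0.34, adjusted p = 0.00118, 30.9%) and 3.37-fold in EpiLCs (−1.75 ± 0.13, adjusted p = 3.04e-07, 44.5%). The serum call was lost without either A485 library (adjusted p up to 0.0155). Treated cells ended below WT cells with DMSO, by −1.61 ± 0.17 in EBs (adjusted p = 7.89e-06, 43.1%), −2.28 ± 0.33 in serum (adjusted p = 0.00228, 36.5%) and −2.72 ± 0.13 in EpiLCs (adjusted p = 4.3e-09, 49.8%). The serum comparison with WT was lost without any 1 of its 4 libraries (adjusted p = 0.0114 to 0.0241). Differences in the A485 effect between these 3 states did not pass (adjusted p = 0.0142 to 0.684), and since matched doses are not known, the states are only set side by side. Of all genes, 31.6% passed for EBs minus serum, 37.4% for EBs minus EpiLCs and 3.25% for serum minus EpiLCs.

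Psap fell with A485 in ESCs and did not pass in the other 3 states, whose dose was another or not given. LSD1 KO ESCs held 532 and 519 CPM with DMSO and 384 and 392 CPM with A485, a 1.41-fold fall (−0.50 ± 0.06, adjusted p = 1.67e-06). The treated ESCs were still above all 11 WT ESC libraries, at most 203 CPM, in separate cultures. With A485, EBs held 199 and 211 CPM, serum cells 258 and 255 CPM and EpiLCs 241 and 231 CPM. Treated and DMSO libraries overlapped in EBs and serum, and the treated EpiLCs were slightly higher. The differences were 0.06 ± 0.11 in EBs (adjusted p = 0.7), −0.04 ± 0.08 in serum (adjusted p = 0.694) and 0.15 ± 0.05 in EpiLCs (adjusted p = 0.0297). Whether the ESC effect differed from the others was not tested.

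Psap in treated LSD1 KO cells therefore still exceeded WT cells with DMSO, by 1.02 ± 0.11 in EBs (adjusted p = 1.09e-05), 1.10 ± 0.08 in serum (adjusted p = 9.6e-07) and 0.90 ± 0.05 in EpiLCs (adjusted p = 1.41e-09). Rnf213 and Psap thus ended on opposite sides of WT in the same libraries. No WT cells received A485. A485 also moved state markers: 6 naive markers fell in ESCs in 6 of 6 cases, from 2414 and 2445 CPM in sum to 1037 and 1049 CPM, and 4 EpiLC markers in EpiLCs to 233 and 264 CPM. In EBs the naive markers went up in sum, from 519 and 550 CPM to 1111 and 1162 CPM, and the neural markers down, from 222 and 233 CPM to 60.9 and 70.4 CPM. Their part was not tested.

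Loss of MLL4 lowered Rnf213 and not detectably Psap. MLL4 KO ESCs held 12.5 and 14.9 CPM of Rnf213 but 127 and 177 CPM of Psap. Both Rnf213 values lay an order of magnitude below every WT ESC library, whereas 1 Psap value lay in the WT range and the other just under it. Rnf213 fell 17.5-fold (−4.13 ± 0.22, adjusted p = 4.18e-18), with 616 of 17603 genes at a lower fold change, and Psap differed by −0.23 ± 0.14 (adjusted p = 0.233). Of all genes, 17.3% passed.

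With LSD1 absent as well, Psap was higher and Rnf213 stayed low. MLL4 LSD1 DKO ESCs held 14.1, 21.0, 17.7 and 17.8 CPM of Rnf213 and 223, 268, 193 and 237 CPM of Psap. Compared with MLL4 KO, Psap rose by 0.62 ± 0.16 (adjusted p = 0.00451) and Rnf213 differed by 0.39 ± 0.20 (adjusted p = 0.166), with 12.9% of genes passing. The Psap call was lost without MLL4 KO replicate 1 (0.39, adjusted p = 0.241), MLL4 LSD1 DKO replicate 2 (0.54, adjusted p = 0.0192) or replicate 4 (0.60, adjusted p = 0.0117). For comparison, LSD1 KO ESCs that keep MLL4 had means of 446 CPM of Rnf213 and 471 CPM of Psap.

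MLL4 KO LSD1 CI ESCs held 12.4, 13.3, 7.3 and 11.8 CPM of Rnf213 and 135, 174, 132 and 158 CPM of Psap, around the MLL4 KO levels. Neither gene passed against MLL4 KO (Rnf213 −0.25 ± 0.20, Psap 0.02 ± 0.16, both adjusted p = 1), where 0.142% of genes did. Between the mutants without LSD1 and those with inactive LSD1, both lacking MLL4, Psap was higher without LSD1 (0.60 ± 0.13, adjusted p = 0.000452) and so was Rnf213 (0.64 ± 0.16, adjusted p = 0.00224), where 16.8% of genes passed. With the replicate number as a block, which pairs these libraries, the Rnf213 value was 0.66 with an adjusted p of 0.0101 and no longer passed. It was also lost without MLL4 KO LSD1 CI replicate 3 (0.48, adjusted p = 0.0237) or MLL4 LSD1 DKO replicate 2 (0.56, adjusted p = 0.0165).

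Re-expression of LSD1 went with different values of the 2 genes. In LSD1Res cells Kdm1a went from 35.7, 38.1, 10.8 and 12.6 CPM to 2253, 2211, 980 and 986 CPM with DOX, in the order of the library numbers. These are RNA levels. By the paper's blots, LSD1 protein with DOX was below WT in LSD1Res cells and comparable to WT in DKOLSD1 cells. Rnf213 went from 235, 263, 473 and 445 CPM to 67.0, 80.7, 109 and 116 CPM, the description that helped to choose it, a ratio of 3.26 to 4.33 in each of the 4 numbered pairs. All 4 DOX libraries lay below all WT ESC libraries, which were sequenced as separate cultures. Psap went from 284, 260, 407 and 413 CPM to 238, 238, 328 and 347 CPM, lower in 4 of 4 pairs by 1.09-fold to 1.24-fold, and stayed above the WT range of 138 to 203 CPM.

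Taken as groups, the Psap libraries of LSD1Res overlapped, and the difference was −0.21 ± 0.13 (adjusted p = 0.331, 5.04% of genes passing). With the numbers as pairs it was −0.20 and passed (adjusted p = 0.00628). Libraries 1 and 2 differed from 3 and 4 before DOX, with the higher Kdm1a and the lower Rnf213 and Psap. Such a split alone would make libraries of the same number vary together, so the 4 pairs may not be independent. Whether the residual Kdm1a bears on the split was not tested.

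DKOLSD1 cells, which lack both CoREST proteins, went from 253 to 276 CPM of Kdm1a to 1830, 2181, 6038 and 5761 CPM with DOX. Rnf213 went from 473, 429, 516 and 557 CPM to 393, 366, 499 and 586 CPM, overlapping ranges with a log2 difference of −0.11, again a description. Psap went from 482, 492, 407 and 424 CPM to 679, 617, 658 and 659 CPM, higher in 4 of 4 pairs with no overlap. As groups this was 0.52 ± 0.13 (adjusted p = 0.0333, 1.28% of genes passing). As pairs, with the limit given for LSD1Res, it was 0.53 (adjusted p = 0.0012).

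In LSD1 KO cells without a transgene, Rnf213 went from 525 and 436 CPM to 471 and 382 CPM with DOX and Psap from 435 and 422 CPM to 499 and 546 CPM. Psap was thus higher with DOX here too (0.19 ± 0.19, adjusted p = 0.943), and 0.0178% of genes passed. The DOX effect on Psap in LSD1Res minus that in DKOLSD1 was −0.74 ± 0.19 (adjusted p = 0.0363, 0.925% of genes passing). As pairs, with the same limit, it was −0.73 (adjusted p = 0.000119), a fit added after the data had been seen.

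**Figure D3:**
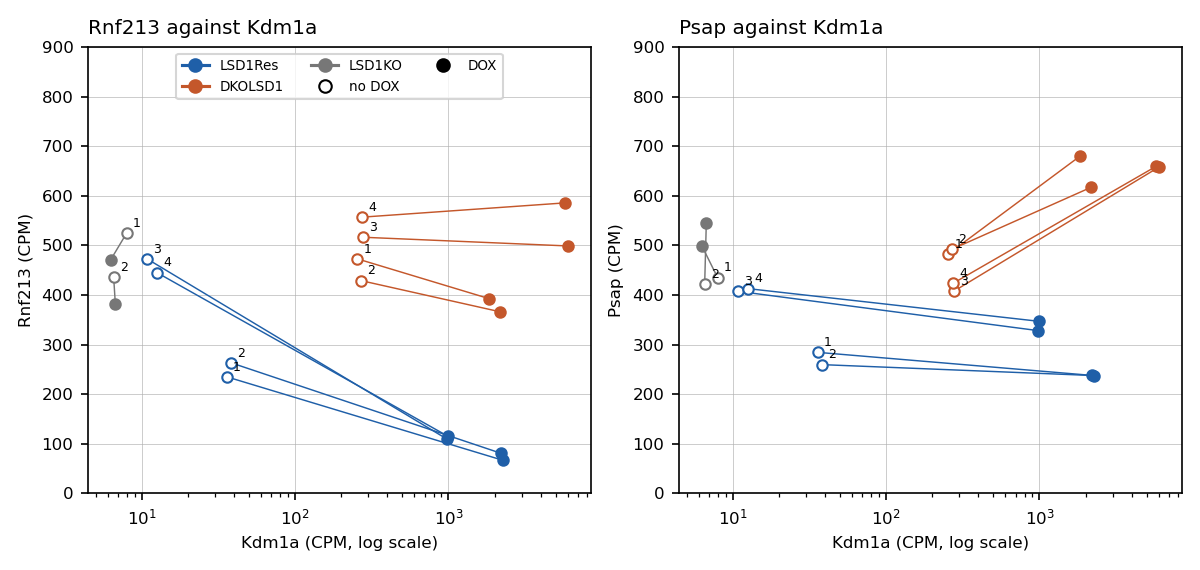
Rnf213 (left) and Psap (right), in CPM, against Kdm1a on a log axis in the DOX lines, with open points without DOX, filled points with DOX, a line joining libraries of the same number and the number beside the open point. The 4 LSD1Res lines fall steeply for Rnf213 and slightly for Psap, and the 4 DKOLSD1 lines rise for Psap.

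Over the 34 groups, the mean log2 levels of Rnf213 and Psap had a Pearson r of 0.57 (Spearman 0.50). Among the 17 ESC groups r was 0.69 and among the 17 differentiated groups −0.57. These are descriptions over groups that share lines and state, without a test. The genes most like Rnf213 over the 34 group means, out of 13330 with at least 5 CPM in 1 group, were Phyh (r = 0.89), Ckmt1 (0.88), Ctsc (0.88), Plekhf1 (0.88) and Tns1 (0.87). Of these, Ctsc and Plekhf1 had their lowest mean in MLL4 KO ESCs, at 2.45 and 3.23 CPM, and Phyh and Tns1 in A485-treated LSD1 KO serum cells, at 9.39 and 2.13 CPM, the group where Rnf213 was lowest. Phyh encodes a peroxisomal enzyme of phytanic acid breakdown, Ctsc a lysosomal protease and Tns1 a focal adhesion protein. The genes most like Psap were Slc37a2 (r = 0.93), Map3k6 (0.93), Rusc2 (0.92), Trpm6 (0.92) and Cnga3 (0.91). Map3k6, Trpm6 and Cnga3 had their highest means in DKOLSD1 cells with DOX (15.8, 34.2 and 50.5 CPM), as did Psap.

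**Figure D4:**
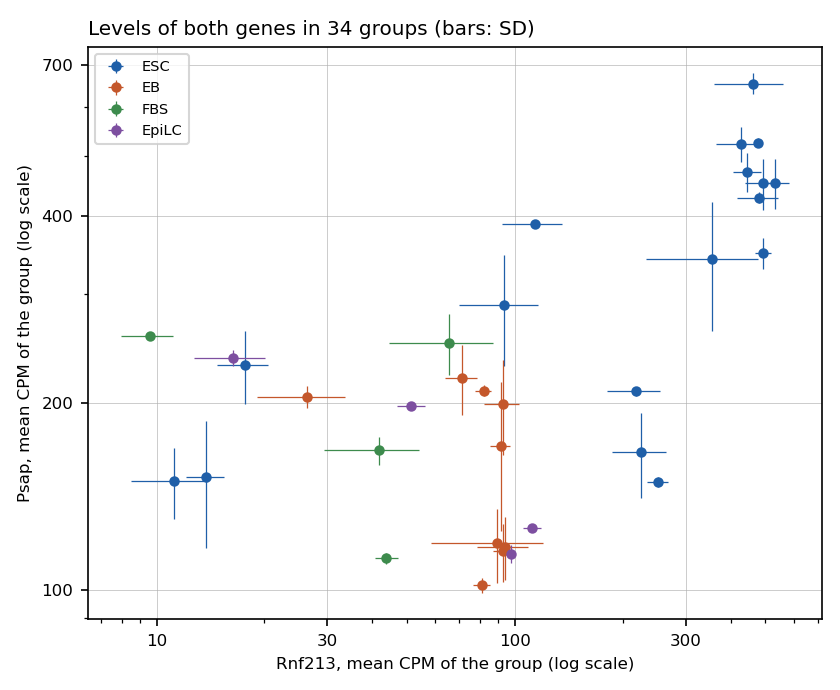
Mean CPM of Psap against mean CPM of Rnf213 for the 34 groups, both on log axes with SD bars, coloured by cell state. ESC groups with a mean Rnf213 of 354 CPM or more have a mean Psap of 341 CPM or more, and MLL4-mutant ESCs and the A485-treated differentiated groups sit at the left with Psap between 149.6 and 256 CPM.

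The genes around each locus were counted from all those within 200 kb. Rnf213 had 11 such neighbours, 10 of them tested in ESCs, and Psap had 5, 3 of them tested. Mir1932 lies within the span of Rnf213, A930037H05Rik overlaps its 3′ end on the minus strand, and the counting used strand. In MLL4 KO ESCs, where 17.3% of all genes passed, 3 of the 10 fell along with Rnf213, all upstream: Slc26a11 (9.0 kb away, −2.95 ± 0.49, adjusted p = 9.64e-06), Sgsh (34.6 kb, −1.84 ± 0.38, adjusted p = 0.000276) and Card14 (44.7 kb, −4.49 ± 1.16, adjusted p = 0.00307). All 3 were rare RNAs in WT ESCs, at 4.11, 2.87 and 0.62 CPM. Sgsh encodes a lysosomal sulfatase. None of the 10 rose. With LSD1 absent as well, 3 of the 10 rose against MLL4 KO and none fell, where 12.9% of all genes passed. They were Ccdc40 (2.09 ± 0.33, adjusted p = 5.34e-06), Sgsh (1.48 ± 0.41, adjusted p = 0.00656) and Card14 (4.66 ± 1.21, adjusted p = 0.00415, at 0.71 CPM). Slc26a11 (1.00 ± 0.51, adjusted p = 0.169) and Rnf213 (0.39 ± 0.20, adjusted p = 0.166) did not pass there.

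In RCOR2 KO ESCs (12.0% of all genes) 3 of the 10 rose and none fell: Ccdc40 (1.36 ± 0.19, adjusted p = 1.17e-06), Gaa, which encodes lysosomal acid glucosidase (0.65 ± 0.15, adjusted p = 0.00205), and Sgsh (0.96 ± 0.23, adjusted p = 0.00195). In RCOR1/2 DKO ESCs, 3 of 10 passed against 37.0% of all genes: 2 rose, Ccdc40 and Nptx1, and the antisense A930037H05Rik fell from 4.27 to 1.17 CPM (−1.94 ± 0.52, adjusted p = 0.00194). With A485, 2 of 8 passed in ESCs against 47.7% of all genes: Gaa fell from 105 to 54.5 CPM in LSD1 KO ESCs (−1.01 ± 0.07, adjusted p = 2.08e-10) and Slc26a11 from 10.4 to 6.40 CPM. In A485-treated EpiLCs 3 of 8 passed against 44.5% of all genes: Sgsh (1.65 ± 0.21, adjusted p = 9.45e-06) and Slc26a11 (1.19 ± 0.25, adjusted p = 0.00089) rose and Ccdc40 fell (−1.16 ± 0.20, adjusted p = 0.00014).

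Of the 3 tested neighbours of Psap, Spock2 (1.55 ± 0.27, adjusted p = 6.35e-06) and Chst3 (1.83 ± 0.23, adjusted p = 1.04e-08), both upstream, rose with it in RCOR1/2 DKO ESCs (37.0% of all genes passing), and none passed in RCOR2 KO (12.0%). In MLL4 KO ESCs (17.3%) 1 of the 3 fell and none rose. It was Vsir, 44.3 kb downstream, a rare RNA at 0.565 CPM in WT ESCs (−2.59 ± 0.75, adjusted p = 0.00835). Chst3, a chondroitin sulfotransferase gene, fell with A485 in LSD1 KO ESCs (47.7%) from 19.5 to 2.46 CPM (−3.05 ± 0.15, adjusted p = 2.24e-12), far more than Psap, and was the only 1 of the 3 to pass. In LSD1 KO cells of each differentiated state with DMSO, 1 of the 3 fell and none rose, where Psap rose. It was Spock2 in serum (−1.29 ± 0.17, adjusted p = 0.000217, 20.1%), and Vsir in EBs (−2.47 ± 0.36, adjusted p = 0.00019, 28.1%) and in EpiLCs (−2.11 ± 0.37, adjusted p = 0.000354, 24.9%).

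**Figure D5:**
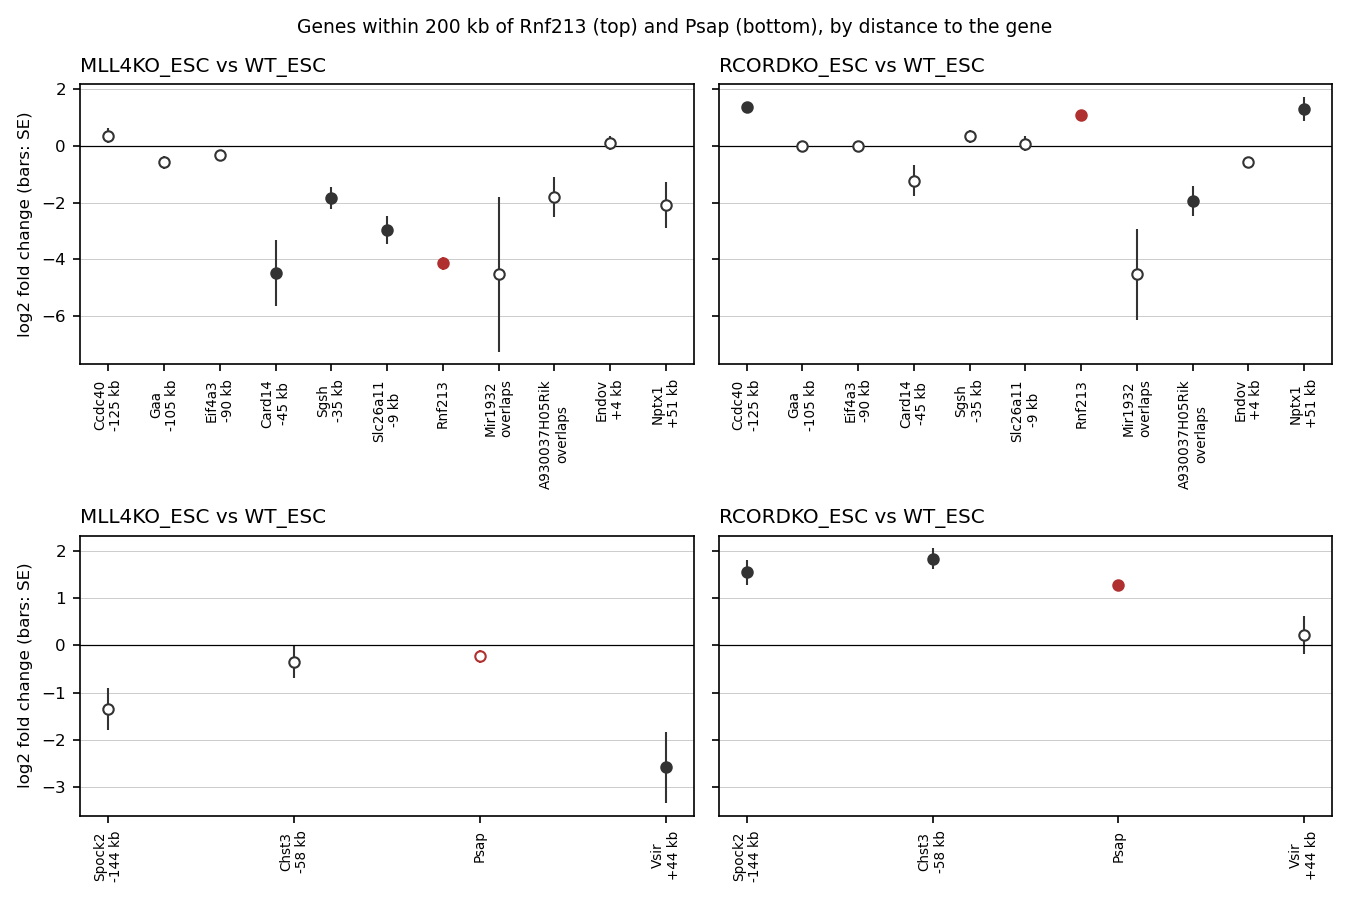
Log2 fold change with standard error of genes within 200 kb of Rnf213 (top) and Psap (bottom), in order along the plus strand with their distance in kb, in MLL4 KO (left) and RCOR1/2 DKO (right) against WT ESCs, filled where the adjusted p was below 0.01. Card14, Sgsh and Slc26a11 fall beside Rnf213 and Vsir beside Psap in MLL4 KO, and Spock2 and Chst3 rise beside Psap in the DKO.

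Rnf213 is known as an interferon-inducible gene, so a list of 48 interferon-stimulated genes without it was counted. In DMSO-treated EBs, 29 of the 45 tested rose in LSD1 KO and 1 fell, where 28.1% of all genes passed, with a median log2 change of 2.95 against 0.02 over all genes, while Rnf213 differed by −0.07. The cardiac, endoderm, neural and naive marker sums given above for these EBs differed as well, and their part in the counts of this list was not tested. Irf1, an interferon-responsive transcription factor, went from 12.5 to 115 CPM (3.12 ± 0.18, adjusted p = 1.14e-07), and Bst2, an antiviral membrane protein, from 10.8 to 51.9 CPM (2.18 ± 0.13, adjusted p = 1.54e-07). Parp9 and its partner Dtx3l, a ubiquitin ligase, rose by 3.90 ± 0.20 and 3.52 ± 0.15 (adjusted p = 5.07e-08 and 1.4e-08). In RCOR1/2 DKO EBs 27 of 46 rose and 2 fell (47.8% of all genes), with a median of 1.67 against −0.03. In the EBs without DMSO, 24 of 46 rose in LSD1 KO and none fell (24.1% of all genes), with a median of 2.06.

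In the other comparisons several counts were near or below the share of all genes that passed, which is given after each median. In LSD1 KO EpiLCs 13 of 41 rose and 1 fell (median 0.94, 24.9%), including Parp14 (2.73 ± 0.22, adjusted p = 4.16e-07), the state in which Rnf213 fell. In serum 15 of 42 rose and 2 fell (median 0.78, 20.1%), led by Trim25 (1.74 ± 0.12, adjusted p = 2.81e-06). In RCOR2 KO ESCs 9 of 46 rose and none fell (median 0.39, 12.0%), and in the DKO 11 rose and 2 fell (median 0.11, 37.0%), where Rnf213 rose by 1.19 and 1.09. In MLL4 KO ESCs 4 rose and 11 fell (median −0.24, 17.3%), and with A485 in EpiLCs 3 of 41 rose and 16 fell (median −0.64, 44.5%), and Rnf213 fell in both. With A485 in LSD1 KO ESCs 16 of 43 rose and 9 fell (median 0.43, 47.7%), and with DOX in LSD1Res none of 39 rose and 8 fell (median −0.52, 5.04%). Of 6 genes whose proteins work with RNF213 (ubiquitin-conjugating enzymes, ISG15, lipid droplet proteins and the phosphatase PTPN1), none passed in RCOR2 KO ESCs (12.0%) or LSD1 KO serum cells (20.1%). In LSD1 KO EpiLCs (24.9%) Plin2, a lipid droplet coat protein gene, rose (1.81 ± 0.13, adjusted p = 8.49e-08) while Ube2n and Ptpn1 fell. In LSD1 KO EBs with DMSO (28.1%) Isg15 (4.17 ± 0.52, adjusted p = 5.46e-05), Pnpla2 (0.90 ± 0.18, adjusted p = 0.00159) and Plin2 (1.57 ± 0.29, adjusted p = 0.00269) rose. In DKO ESCs (37.0%) only Plin2 passed, rising by 0.80 ± 0.12 (adjusted p = 1.07e-06).

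For Psap, 12 genes of hydrolases served by saposins or acting beside them were counted. In LSD1 KO cells 3 of 12 rose and 2 fell in DMSO-treated EBs (28.1% of all genes passing), 3 rose and 1 fell in serum (20.1%) and 5 rose and 1 fell in EpiLCs (24.9%). Glb1, lysosomal beta-galactosidase, rose in serum (1.16 ± 0.13, adjusted p = 5.51e-05) and EpiLCs (0.78 ± 0.10, adjusted p = 2.03e-05). Arsa, arylsulfatase A, the enzyme assisted by saposin B, fell where Psap rose, in DMSO-treated EBs (−1.52 ± 0.17, adjusted p = 2.38e-05), serum (−1.29 ± 0.20, adjusted p = 0.000624) and RCOR1/2 DKO ESCs (−2.68 ± 0.30, from 18.7 to 3.23 CPM, adjusted p = 1.78e-09). In RCOR2 KO ESCs none of the 12 passed in either direction (12.0% of all genes), and in the DKO 4 rose and 5 fell (37.0%).

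Of 8 genes of prosaposin traffic and cleavage, 1 rose and 1 fell in RCOR2 KO ESCs (12.0% of all genes passing), 2 rose and 2 fell in DKO ESCs (37.0%), and in LSD1 KO cells none rose and 2 fell in EBs with DMSO (28.1%), 2 rose and 1 fell in serum (20.1%) and 3 rose and 2 fell in EpiLCs (24.9%). Sort1, the sortilin receptor, fell in RCOR2 KO ESCs (−1.22 ± 0.18, adjusted p = 2.41e-06), in DKO ESCs (−1.16 ± 0.18, adjusted p = 6.08e-07), in LSD1 KO serum cells (−0.61 ± 0.10, adjusted p = 0.000735) and in LSD1 KO EpiLCs (−1.06 ± 0.14, adjusted p = 8.91e-05). Lrp1, the endocytic receptor, rose in RCOR2 KO (0.82 ± 0.21, adjusted p = 0.00391) and DKO ESCs (1.33 ± 0.20, adjusted p = 1.13e-06), rose in LSD1 KO EpiLCs (0.74 ± 0.08, adjusted p = 4.84e-06) and fell in LSD1 KO EBs with DMSO (−0.84 ± 0.17, adjusted p = 0.00173). Igf2r, the receptor for mannose 6-phosphate and IGF2, fell in LSD1 KO EBs with DMSO from 919 to 135 CPM (−2.85 ± 0.12, adjusted p = 1.3e-08). Of the cathepsin genes, Ctsb fell (−0.54 ± 0.10, adjusted p = 4.68e-05) and Ctsl rose (0.71 ± 0.17, adjusted p = 0.000618) in DKO ESCs. Ctsd, cathepsin D, which cleaves prosaposin, rose in serum (0.51 ± 0.09, adjusted p = 0.000952) and EpiLCs (0.43 ± 0.07, adjusted p = 0.000212). Of 12 lysosomal regulators and membrane genes, 3 rose and 5 fell in DKO ESCs (37.0% of all genes passing), among them Tfeb, the master regulator of lysosomal genes, which fell from 42.0 to 17.8 CPM (−1.39 ± 0.17, adjusted p = 8.39e-09) as Psap rose. In LSD1 KO serum cells, where Psap rose too, Tfeb went the other way, from 2.90 to 13.8 CPM (2.24 ± 0.27, adjusted p = 0.000115). In RCOR2 KO ESCs it did not pass (−0.34 ± 0.16, adjusted p = 0.114). In RCOR2 KO ESCs (12.0%) only Scarb2 of this list passed, and it fell (−1.11 ± 0.15, adjusted p = 1.21e-06). In LSD1 KO EpiLCs 6 rose and 1 fell (24.9%), with Cd63 at 1.35 ± 0.12 (adjusted p = 1.86e-06). In LSD1 KO EBs with DMSO (28.1%) Npc1 (−1.28 ± 0.13, adjusted p = 9.32e-06) and Npc2 (−0.875 ± 0.16, adjusted p = 0.00101) fell. Only Tfe3 rose there (0.87 ± 0.17, adjusted p = 0.0017). In LSD1 KO serum cells (20.1%) Cd63 and Atp6v0d1 rose and Npc2 fell. Of 13 KLF and SP factors, which bind GC and CACCC boxes, none rose and 5 fell in DKO ESCs, close to the 37.0% of all genes that passed, and 5 rose and none fell in LSD1 KO EpiLCs (24.9%), including Klf2 (1.77 ± 0.16, adjusted p = 9.42e-07) and Klf5 (1.36 ± 0.13, adjusted p = 2.58e-06). Klf2 also rose in LSD1 KO EBs with DMSO (2.32 ± 0.17, adjusted p = 8.02e-07) and in LSD1 KO serum cells (2.37 ± 0.40, adjusted p = 0.00637). Klf5 and Klf9 rose in those EBs (28.1%) and Klf3 and Klf4 in serum (20.1%). Klf6 and Klf7 fell in RCOR2 KO ESCs (12.0%).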

How the data were processed

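RNA of 112 mouse cell libraries in 34 groups, grouped by the submitters' labels, was measured by strand-specific, ribosome-depleted RNA sequencing. The authors trimmed reads, aligned them to mm9 with STAR 2.7.9a, removed duplicates with Picard 2.25.5 and deposited counts per gene on the reverse strand, which are whole-number counts without normalization. Between 72.2% and 84.7% of low counts were even, so mates may have been counted separately, and halved counts were tried. The ribosomal precursor Rn45s took 8.06% to 24.9% of counts.

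Tests used edgeR 4.0.16 (R 4.3.3) with TMM factors, filterByExpr on the groups and its robust quasi-likelihood F test, with Benjamini-Hochberg adjustment over all genes tested. There were 38 comparisons and 15 tests of a difference between effects. All untreated ESC groups shared 1 fit, which mixed libraries with and without counts on unplaced contigs. Comparisons between cell states, and differences between effects across states, set separate cultures against each other. The main fits had no term for batch, so batch and group cannot be told apart where they coincide. A gene passed at an adjusted p below 0.01. Standard errors are the fold change over the square root of F. Printed levels are CPM of raw totals, so their ratio can differ from the fitted fold. Alternatives were DESeq2 1.42.0 and its size factors, no filter, compared groups only, a replicate block, an alignment term, halved counts, no Rn45s and each replicate left out. The fits were tested on simulated data.

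Replicate numbers paired the libraries, every pair's correlation of deviations being over 0.1, in LSD1Res (0.52 to 0.57), DKOLSD1 (0.46 to 0.54) and MLL4 LSD1 DKO against MLL4 KO LSD1 CI (0.11 to 0.34). The pairing comes from the data, as the labels give numbers only.

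The 2 genes, the gene lists and the tests were chosen with earlier results of these data known. Named beside them were the 5 genes with the highest correlation of group means of log2(CPM + 1), tested genes within 200 kb, and up to 4 members of a list with the smallest adjusted p in 5 comparisons. Lists were interferon-stimulated genes, RNF213 partners, saposin-dependent hydrolases, prosaposin traffic, lysosomal regulators, KLF factors and state markers. Neighbours named outside those comparisons, and the pathway genes beside Psap, were picked from these sets after their values were seen. Values of some members of the hydrolase list are not reported here.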

Additional observations from a re-analysis of the deposited data

Results flagged for a closer look

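Of 15 tested differences between effects in separate states or lines, 2 passed, both for Rnf213. In the first below 29.5% of all genes passed and in the second 1.76%. Over the 15, this share ran from 0.925% to 37.4%. Loss of both CoREST proteins raised Rnf213 in ESCs, with 4 of 4 libraries above all 11 WT libraries, and went with a slightly lower level in EBs, a difference of −1.51 ± 0.19 (log2, EB effect minus ESC effect, edgeR adjusted p = 2.75e-07). Leaving out any 1 library of the mutant groups kept it between −1.58 and −1.49. Loss of LSD1 went with a higher level of Rnf213 in 2 of 2 serum libraries and a lower one in 2 of 2 EpiLC libraries, a difference of 1.54 ± 0.25 (serum effect minus EpiLC effect, adjusted p = 0.00665), which rests on 2 libraries a group and was lost without any 1 of 6 of the 8 libraries. In the groups of 4 to 10 libraries, 30 tests over both genes found 0 libraries far from the others, where chance alone would mark about 1 in 20.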

How the results depend on the processing

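Of 1094 alternative values, 1035 kept their direction and side of the threshold (or, without a test, moved by less than 1 SD between libraries), 30 lost a call, 23 gained one, 6 moved and 0 reversed. Values are log2 differences. Halving the counts and leaving out WT ESC replicates 1 to 3 changed no call. With only the compared groups fitted, which leaves fewer libraries for the spread, 4 calls were lost: Psap in MLL4 LSD1 DKO against MLL4 KO (0.62), in LSD1 KO against LSD1 CI EBs (0.65) and in WT serum cells against WT ESCs (−0.62), and Rnf213 in MLL4 LSD1 DKO against MLL4 KO LSD1 CI (0.65), while Psap in DKOLSD1 with DOX was gained (0.53). Without the filter on low counts, Rnf213 in A485-treated serum cells against WT lost its call (−2.28). For differences between effects on Rnf213, A485 in EBs minus serum gained a call with DESeq2 (1.30), its size factors (1.30), no filter (1.29) and no Rn45s (1.30). DESeq2 and no filter also gained LSD1 KO in EBs minus serum (−0.70 and −0.70), LSD1 KO in EBs minus EpiLCs (0.85 and 0.84) and A485 in serum minus EpiLCs (−1.06 and −1.08). DESeq2 gained Psap in DKOLSD1 with DOX (0.53) and its DOX difference between lines (−0.75). The alignment term moved LSD1 KO against LSD1 CI ESCs to 1.34 for Rnf213 and 1.03 for Psap. The cause of these changes was not tested.

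The replicate block, where libraries of the same number varied together, lost Rnf213 in MLL4 LSD1 DKO against MLL4 KO LSD1 CI (0.66) and gained Psap with DOX in LSD1Res (−0.20), in DKOLSD1 (0.53) and in their difference (−0.73), and changed no other call there. Elsewhere libraries share only a number: the block lost Psap in LSD1 KO EBs (0.74), gained Rnf213 in RCOR1/2 DKO EBs (−0.51) and in LSD1 KO serum cells against WT (0.56) and LSD1 CI (0.61), and moved Psap in LSD1 KO against LSD1 CI ESCs to 1.32.

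Leaving out 1 replicate at a time gave, for Psap, 0.39 to 0.88 in MLL4 LSD1 DKO against MLL4 KO, 0.60 to 0.96 in LSD1 KO against WT EBs, 0.52 to 0.87 against LSD1 CI EBs, 0.41 to 0.67 in LSD1 KO against LSD1 CI serum cells, −0.68 to −0.59 in WT serum cells against ESCs and −0.85 to −0.64 for the DOX difference between lines. For Rnf213 it gave 0.48 to 0.76 in MLL4 LSD1 DKO against MLL4 KO LSD1 CI, −3.18 to −2.49 for A485 in serum and −2.48 to −2.11 against WT, −0.47 to −0.081 for DOX in LSD1 KO cells, and −2.36 to −1.93 for A485 in ESCs. For its differences between effects it gave 0.85 to 1.55 for A485 in EBs minus serum, −1.01 to −0.32 for LSD1 KO in EBs minus serum, −1.36 to −0.66 for A485 in serum minus EpiLCs and 1.16 to 1.85 for LSD1 KO in serum minus EpiLCs. With 1 library left in a group, it was assumed to vary like the others of the fit. Of the 34 groups, 18 had 2 libraries, which limits the precision.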

Other observations

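The 2 libraries of LSD1 KO cells in serum with DMSO stood apart for Rnf213, at 80.5 and 50.8 CPM, more than for Psap, at 270 and 230 CPM. In LSD1Res cells without DOX, libraries 1 and 2 held 35.7 and 38.1 CPM of Kdm1a with 235 and 263 CPM of Rnf213, close to the WT ESC median of 231 CPM, whereas libraries 3 and 4 held 10.8 and 12.6 CPM of Kdm1a with 473 and 445 CPM of Rnf213, within the range of LSD1 KO ESCs. Psap in the same libraries was 284 and 260 CPM and 407 and 413 CPM, above the WT range in all 4. With DOX, the libraries with the higher Kdm1a (2253 and 2211 CPM) again had the lower Rnf213 and Psap. DKOLSD1 libraries 3 and 4, with 6038 and 5761 CPM of Kdm1a, had 499 and 586 CPM of Rnf213 where libraries 1 and 2, with 1830 and 2181 CPM, had 393 and 366 CPM, and Psap lay between 617 and 679 CPM in all 4. These are values of single libraries, and no test was made.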
